A study of Mus musculus with 15 samples.

Results

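Of the 55471 genes in a table of RNA-seq counts from mouse mesenchymal cells, 9 are described here: the ETS transcription factor genes Fli1, Erg, Ets1, Ets2, Etv1, Etv4 and Etv5, and the FET family genes Ewsr1 and Taf15. They were chosen by symbol, as the endogenous mouse genes related to the partners of the fusion protein EWS::FLI1, and all 9 were found once in the table. The fusion itself is not a row of the table. Whether its reads were counted at mouse Fli1 or Ewsr1 was not tested, so these genes do not check the genotype labels.

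The data are 15 poly(A)-enriched libraries of cells labelled MSCLCs, in 2 experiments on different flowcells. Experiment 1 held 4 libraries of the genotype EFPrx1MSCLC (title numbers 219, 221, 225 and 229) and 3 of the genotype MSC (202, 234 and 237), which the study's design text calls EFPrx1 and WT. Experiment 2 held 4 libraries of the genotype hr (1-1, 1-2, 2-1 and 2-2, from their title endings), 2 of ha (1 and 2) and 2 of EF (1 and 2). All of these carry the title number 221, and the design text calls them hr-EFPrx1, ha-EFPrx1 and EFPrx1. Titles of hr add Combi and uns, and titles of ha add Combi and T. The construct and promoter behind EFPrx1 and the meaning of ha, hr, Combi, uns and T are not explained in the labels. No label names the animal or culture of a library beyond the title number, and each p-value therefore reflects how much these libraries vary, part of which may be technical variation. No test was made between experiments, because flowcell and experiment cannot be told apart.

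ETS factors share a DNA-binding domain that recognises a GGAA core, read as TTCC on the opposite strand. FLI1 and ERG are close relatives known from blood and endothelial cells, ETS1 and ETS2 are direct targets of the ERK kinases, and ETV1, ETV4 and ETV5 form the PEA3 group, whose transcription follows growth factor signalling through ERK. EWSR1 and TAF15 belong to the FET family of RNA-binding proteins, which are abundant in most cell types. In human Ewing sarcoma a chromosomal translocation joins the start of EWSR1 to the DNA-binding end of an ETS factor, most often FLI1 and less often ERG, ETV1 or ETV4.

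Library totals were 14906251 to 26833939 counts in experiment 1 and 11195431 to 16378416 in experiment 2. Levels are CPM, read counts scaled to a common library total. Fold changes are log2 values with standard errors from edgeR's quasi-likelihood test on TMM-scaled counts, adjusted by Benjamini-Hochberg over all genes tested, and a gene is called at an adjusted p under 0.05. All 11 mesenchymal markers were detected in every library, with summed levels of 4082 to 18510 CPM. Some libraries stood apart or lay very close. The squared distance between libraries, relative to what sampling noise of counts gives, was 1.29 for hr 1-1 and 1-2, 1.29 for hr 2-1 and 2-2 and 1.35 for EF 1 and 2. Pairs of hr libraries with different first digits reached 16.3 to 17.9, ha 1 and 2 reached 21.6, and replicates in experiment 1 lay 7.62 to 124 apart. The close pairs may be repeat libraries of a single sample. Each p-value of experiment 2 counts them as separate, and with the close pairs summed 0 members were called in ha against EF, 0 in hr against EF and 1, Etv4, in hr against ha.

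The promoters of Taf15 and Ewsr1 are shown because these FET genes were lower together in ha than in EF. They are the 250 bases before the annotated start from RefSeq on GRCm38.p6, 5′ to 3′ on the gene's strand, at chr11:83472858-83473107 (plus strand) for Taf15 and chr11:5099097-5099346 (minus strand) for Ewsr1. In GENCODE M21, used for the gene positions below, Taf15 starts at 83473086 and Ewsr1, on the minus strand, at 5099266. Part of each window therefore lies inside the gene as placed there. Capitals mark the ETS core GGAA or its opposite strand TTCC.
Taf15: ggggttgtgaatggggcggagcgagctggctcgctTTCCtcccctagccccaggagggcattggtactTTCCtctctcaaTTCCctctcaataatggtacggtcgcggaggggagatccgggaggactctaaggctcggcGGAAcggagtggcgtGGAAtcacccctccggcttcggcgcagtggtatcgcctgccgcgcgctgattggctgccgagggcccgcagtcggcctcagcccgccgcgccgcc
Ewsr1: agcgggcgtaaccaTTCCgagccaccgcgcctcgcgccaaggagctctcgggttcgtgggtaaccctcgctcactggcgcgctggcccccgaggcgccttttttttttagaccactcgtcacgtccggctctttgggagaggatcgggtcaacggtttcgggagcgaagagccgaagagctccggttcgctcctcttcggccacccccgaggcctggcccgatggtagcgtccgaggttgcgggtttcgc
The Taf15 window held 5 such cores and the Ewsr1 window 1, against a median of 3 over 32851 promoter windows of this length, of which 93.4% held at least 1. This short core was counted after the data were seen. The longer ETS motif CCGGAAG (opposite strand CTTCCGG), present in 6.91% of all windows, was in none of the windows of the 6 members with an entry, and neither was the GGAA repeat GGAAGGAA (TTCCTTCC), present in 3.12%. The repeat can overlap the longer motif. A match is a description of the letters, not of binding.

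**Figure D1:**
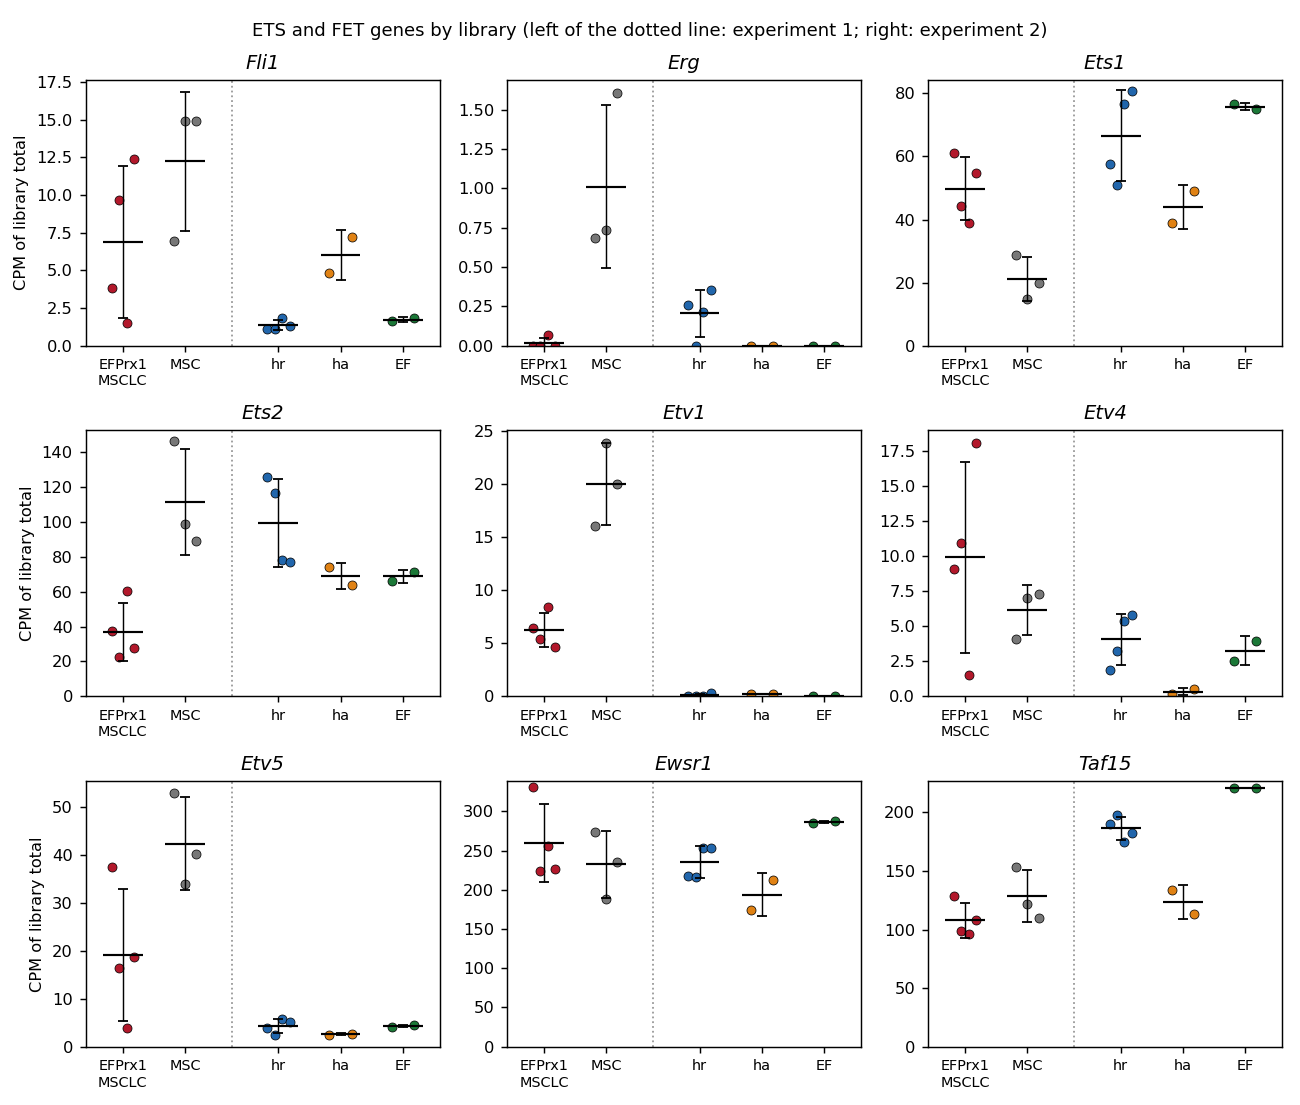
CPM of the library total for the 9 genes in each of 15 libraries (points), with group mean (horizontal line) and SD (bars); groups left of the dotted line belong to experiment 1 (EFPrx1MSCLC n = 4, MSC n = 3) and those right of it to experiment 2 (hr n = 4, ha n = 2, EF n = 2). Etv1 and Ets2 show no overlap between EFPrx1MSCLC and MSC, and Fli1 and Etv4 set the ha libraries apart from hr and EF in opposite directions.

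Fli1 (ENSMUSG00000016087, chromosome 9, 32422204 to 32542861, minus strand, GRCm38) was expressed at low levels in every library. In experiment 1 it stood at 3.86, 9.66, 1.51 and 12.41 CPM in EFPrx1MSCLC 219, 221, 225 and 229, against 6.93, 14.94 and 14.89 CPM in MSC 202, 234 and 237. The groups overlap, and the EFPrx1MSCLC libraries alone span more than the distance between the group means. The difference was -1.09 ± 0.68 and was not called (edgeR adjusted p = 0.284).

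In experiment 2 mouse Fli1 was high in ha. It stood at 1.11, 1.12, 1.83 and 1.32 CPM in hr 1-1, 1-2, 2-1 and 2-2, at 4.83 and 7.20 CPM in ha 1 and 2, and at 1.61 and 1.83 CPM in EF 1 and 2. Both ha libraries lay above all 6 others, while hr and EF overlap. Fli1 was higher in ha than in EF by 1.80 ± 0.36 (edgeR adjusted p = 0.00634, and 0.0571 without EF 1). In hr it fell by 2.14 ± 0.30 relative to ha (edgeR adjusted p = 0.00146), and between hr and EF it was not called (-0.34 ± 0.33, edgeR adjusted p = 0.553).

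Erg (ENSMUSG00000040732, chromosome 16, 95359169 to 95586593, minus strand), the closest relative of Fli1, was near the detection limit everywhere. EFPrx1MSCLC libraries held 0, 0, 1 and 0 counts, and MSC libraries 17, 11 and 24, which is 0.68, 0.74 and 1.61 CPM. All 3 MSC libraries were above the 4 EFPrx1MSCLC libraries. Erg was called lower (-5.87 ± 0.98, edgeR adjusted p = 0.00757), but it passed the filter on low counts through the MSC libraries alone, so no other direction was open to it and its values are a description. The ratio of summed counts, 1 in EFPrx1MSCLC and 52 in MSC, had a 95% interval of 0.000332 to 0.0779, which covers counting error only. Without EFPrx1MSCLC 225, the library with the single count, the fitted change was -7.51. Erg had 3, 0, 3 and 4 counts in the 4 hr libraries and none in the ha and EF libraries, where 0 counts allow up to 0.0978 CPM in ha and 0.126 CPM in EF (3 counts over the group). It was not tested in experiment 2.

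Blood cell markers were far lower in EFPrx1MSCLC than in MSC, with a median log2 fold change of -7.18 over 12 markers. Of the ETS members, Ets2 and Etv1 were lower by smaller amounts (-1.83 and -1.93). Erg was also called lower, in the only direction open to it. Fli1 (-1.09), Etv5 (-1.43), Ets1 (0.97) and Etv4 (0.43) were not called. The 12 hematopoietic markers summed to 465.2, 53.55, 55.32 and 70.58 CPM in EFPrx1MSCLC 219, 221, 225 and 229, against 10640, 30010 and 19220 CPM in MSC 202, 234 and 237. Of these markers, 11 of 12 were called lower, where 12.1% of all genes were. Several, among them Ptprc, Fcer1g, Tyrobp and Spi1, passed the filter on low counts only with the MSC libraries. For these no call other than lower was open. In each of EFPrx1MSCLC 221, 225 and 229, 1 of the 12 was at 0, and none was at 0 in EFPrx1MSCLC 219 or in MSC. Among the 12 is an ETS gene, Spi1, which encodes the myeloid factor PU.1. Spi1 stood at 2.25, 0, 0.07 and 0 CPM in EFPrx1MSCLC and at 25.00, 110.2 and 118.1 CPM in MSC. It was called lower (-7.51 ± 1.57, edgeR adjusted p = 0.0168), but no other direction was open to it and its values are a description. In bulk libraries fewer cells of a type and less RNA per cell cannot be told apart, and the part of blood cells in the levels of Fli1, Erg, Ets2 and Etv1 was not tested.

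**Figure D2:**
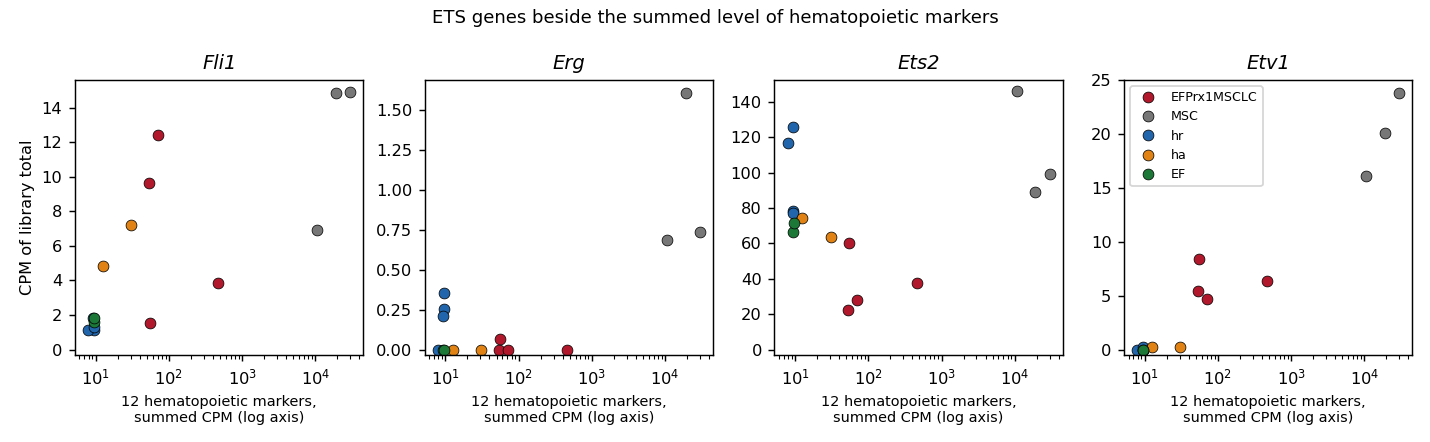
CPM of Fli1, Erg, Ets2 and Etv1 (vertical axes) against the summed CPM of 12 hematopoietic markers (horizontal log axes), one point per library, coloured by group. The 3 MSC libraries lie at 10640 to 30010 CPM of blood markers and the other 12 libraries at 7.898 to 465.2 CPM; Ets2 in hr 1-1 and 1-2, at 9.452 and 7.898 CPM of blood markers, falls within the range of the MSC libraries.

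The summed level of 9 endothelial markers, relevant to Fli1 and Erg, overlapped between EFPrx1MSCLC and MSC and between ha and EF. It was 54.63, 133.9, 6.891 and 122.5 CPM in EFPrx1MSCLC 219, 221, 225 and 229 and 11.4 to 14.66 CPM in MSC. Only EFPrx1MSCLC 225 lay below MSC, and the others lay above. Most of the sum in those others was Kdr, at 36.68, 124.5 and 115.6 CPM. Kdr stood at 0.3281 CPM in EFPrx1MSCLC 225 and 1.945 to 6.804 CPM in MSC (3.54 ± 1.45, edgeR adjusted p = 0.124). Tek (-2.71 ± 0.92) and Cdh5 (-0.875 ± 0.929) went the other way. Of 4 tested there 0 were called, where 19.8% of all genes were. In experiment 2 the sum was 8.369 to 17.03 CPM in hr, 14.83 and 21.92 CPM in ha and 18.66 to 20.45 CPM in EF. The endothelial cadherin gene Cdh5 reached no more than 1.669 CPM in any library. Of 5 endothelial markers tested in ha against EF, 4 had groups that did not overlap, against 75.2% of all genes. Among the 5, 1 was called higher, where 23.0% of all genes were. That was the angiopoietin receptor gene Tek, at 0 to 0.4222 CPM in hr, 2.448 and 11.23 CPM in ha and 0 in EF. Tek passed the filter on low counts through the ha libraries alone, so no other direction was open to it and its values are a description. The secreted factor gene Egfl7 stood at 0.5269 to 0.9367 CPM in hr, 1.399 and 2.442 CPM in ha and 0.5558 and 0.9825 CPM in EF, and was lower in hr than in ha (-1.40 ± 0.42, edgeR adjusted p = 0.0318). The endothelial marker Kdr went the other way, at 9.233 and 6.289 CPM in ha and 18.13 and 16.83 CPM in EF. It was not called (-1.15 ± 0.42, edgeR adjusted p = 0.0587). These genes were singled out after the values were seen, and their part was not tested. Hematopoietic markers summed to 7.898 to 9.485 CPM in hr, 12.52 and 30.47 CPM in ha and 9.379 and 9.528 CPM in EF, so the higher Fli1 of ha came with a higher blood marker sum whose part was not tested. Of 3 blood markers tested in ha against EF, 2 were called higher, where 23.0% of all genes were. The third, Cd68, went the other way, at 2.098 and 3.358 CPM in ha and 4.198 and 3.573 CPM in EF. It was not called there (-0.51 ± 0.28, edgeR adjusted p = 0.184) and was higher in hr than in ha (0.88 ± 0.25, edgeR adjusted p = 0.0262). The lysozyme gene Lyz2 stood at 6.575 and 11.36 CPM in ha and 2.59 and 2.064 CPM in EF (1.94 ± 0.57, edgeR adjusted p = 0.0279), and Cd14 at 3.217 and 14.71 CPM in ha and 2.233 and 3.017 CPM in EF (1.74 ± 0.59, edgeR adjusted p = 0.0473). In ha the pan-leukocyte gene Ptprc had 0 counts in both libraries, and the macrophage receptor gene Csf1r was at 0 and 0.1832 CPM. Sums of other marker lists also set the ha libraries apart in experiment 2. Epithelial markers summed to 41.59 to 44.42 CPM in hr, 2.381 and 4.826 CPM in ha and 14.13 and 15.1 CPM in EF, with the epithelial adhesion gene Epcam at 0 in all 8 libraries. Mesenchymal markers summed to 11160 to 13340 CPM in hr, 17940 and 18510 CPM in ha and 12630 and 12690 CPM in EF, within the hr range. The largest part in ha was Col1a2, at 9020 and 8392 CPM, against 3635 and 3685 CPM in EF. Of 11 mesenchymal markers tested in ha against EF, 5 were higher and 2 lower, beside 23.0% and 19.6% of all genes. The lower ones were Vim (-1.20 ± 0.20, edgeR adjusted p = 0.00301) and Twist2 (-1.17 ± 0.39, edgeR adjusted p = 0.0434). The part of either list in the changes of the ETS and FET genes was not tested.

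Ets1 (ENSMUSG00000032035, chromosome 9, 32636221 to 32757820, plus strand) lies 93.4 kb from Fli1. It stood at 61.21, 44.21, 38.92 and 54.71 CPM in EFPrx1MSCLC and at 28.75, 14.80 and 19.86 CPM in MSC. All 4 EFPrx1MSCLC libraries exceeded all 3 MSC libraries, yet the difference of 0.97 ± 0.29 fell just short of the threshold (edgeR adjusted p = 0.0517). It was called by DESeq2 (adjusted p = 0.0128), by limma-voom (0.0476), without MSC 202 (edgeR adjusted p = 0.0128), without EFPrx1MSCLC 225 (0.0483) and when scaled by library totals (0.0248). Over all its alternatives the adjusted p ran from 0.0128 to 0.189. Lymphoid markers, from cells where Ets1 is known to be abundant, summed to at most 0.605 CPM in any library.

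In experiment 2 Ets1 was lowest in ha. Levels were 57.65, 50.99, 76.70 and 80.80 CPM in hr 1-1, 1-2, 2-1 and 2-2, 38.96 and 48.91 CPM in ha, and 76.55 and 75.03 CPM in EF. The hr libraries split by their first title digit, with 2-1 and 2-2 near EF and 1-1 and 1-2 near ha. Ets1 was lower in ha than in EF by -0.78 ± 0.24 (edgeR adjusted p = 0.0306), a call lost when any ha or EF library was left out (0.0643 to 0.123). Neither hr against ha (0.60 ± 0.21, edgeR adjusted p = 0.0528) nor hr against EF (-0.18 ± 0.20, edgeR adjusted p = 0.611) was called. Without hr 1-2 the difference of hr from ha was called (0.72, edgeR adjusted p = 0.0194), as it was without hr 1-1 (0.67, edgeR adjusted p = 0.0490).

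Ets2 (ENSMUSG00000022895, chromosome 16, 95702075 to 95721051, plus strand) lies 115 kb from Erg and was lower in EFPrx1MSCLC. It stood at 37.43, 22.44, 60.38 and 27.95 CPM in EFPrx1MSCLC, against 146.4, 99.00 and 89.36 CPM in MSC, with no overlap. The change was -1.83 ± 0.39 (edgeR adjusted p = 0.0183, and 0.0519 without MSC 234). In experiment 2 it was called in none of the comparisons. Ets2 stood at 125.7, 116.8, 78.18 and 77.28 CPM in hr, 74.42 and 63.93 CPM in ha, and 66.28 and 71.30 CPM in EF. All 4 hr libraries exceeded the ha and EF libraries, with the higher values in hr 1-1 and 1-2. The differences were 0.53 ± 0.22 for hr against EF (edgeR adjusted p = 0.187), 0.51 ± 0.22 for hr against ha (edgeR adjusted p = 0.108) and 0.02 ± 0.25 for ha against EF (edgeR adjusted p = 0.956). The last of these changed sign without ha 1 (-0.16) or EF 1 (-0.04).

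The balance between Ets1 and Ets2 thus differed between libraries. The ratio of Ets1 to Ets2 CPM was 1.64, 1.97, 0.645 and 1.96 in EFPrx1MSCLC 219, 221, 225 and 229, against 0.196, 0.149 and 0.222 in MSC 202, 234 and 237. Every EFPrx1MSCLC library exceeded every MSC library, and EFPrx1MSCLC 225 was the lowest of its group. In experiment 2 the ratio was 0.459 and 0.437 in hr 1-1 and 1-2, 0.981 and 1.05 in hr 2-1 and 2-2, 0.524 and 0.765 in ha, and 1.15 and 1.05 in EF. No test was made on this ratio.

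Etv1 (ENSMUSG00000004151, chromosome 12, 38779380 to 38870484, plus strand) was the PEA3 gene that differed in experiment 1. It stood at 6.39, 5.43, 8.40 and 4.66 CPM in EFPrx1MSCLC and at 16.07, 23.85 and 20.06 CPM in MSC. The highest EFPrx1MSCLC library, 225, was still below the lowest MSC library, 202. Etv1 was lower by -1.93 ± 0.32 (edgeR adjusted p = 0.00757) and was called under all 13 alternatives, with adjusted p from 4.63e-07 to 0.0379. In experiment 2 Etv1 was almost undetected, with 0, 0, 0 and 3 counts in hr, 3 and 4 counts in ha, and 0 in both EF libraries, which allows up to 0.126 CPM (3 counts over the group). It had too few counts to be tested there.

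Etv4 (ENSMUSG00000017724, chromosome 11, 101769742 to 101785371, minus strand) did not separate the groups of experiment 1. Levels were 9.04, 10.96, 1.51 and 18.07 CPM in EFPrx1MSCLC and 4.11, 7.03 and 7.31 CPM in MSC. EFPrx1MSCLC 225 lay below all MSC libraries and the other 3 above them. The difference was 0.43 ± 0.70 (edgeR adjusted p = 0.692) and changed sign without EFPrx1MSCLC 229 (-0.14).

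Etv4 was nearly absent from ha in experiment 2. It stood at 1.87, 3.19, 5.35 and 5.80 CPM in hr 1-1, 1-2, 2-1 and 2-2, at 0.14 and 0.49 CPM in ha, and at 2.5 and 3.97 CPM in EF. Both ha libraries lay below the 6 others, and the hr and EF libraries overlap. In hr Etv4 was higher than in ha by 3.64 ± 0.70 (edgeR adjusted p = 0.00567), a call made under all 17 alternatives. The ratio of hr to ha rested on 201 and 10 summed counts, with a 95% interval of 6.71 to 26.7 for counting error. In ha Etv4 fell by 3.31 ± 0.74 relative to EF (edgeR adjusted p = 0.00968, and 0.0553 without EF 2), on 10 counts in ha and 78 in EF with an interval of the ratio of 0.0459 to 0.193. Without ha 2 these changes stood at 4.71 for hr against ha and -4.38 for ha against EF. Between hr and EF, Etv4 was not called (0.33 ± 0.54, edgeR adjusted p = 0.745).

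Etv5 (ENSMUSG00000013089, chromosome 16, 22381309 to 22439719, minus strand) varied widely among the EFPrx1MSCLC libraries. They held 37.55, 16.39, 4.00 and 18.63 CPM, against 52.96, 33.96 and 40.18 CPM in MSC. EFPrx1MSCLC 219 falls inside the MSC range and the other 3 below it. The difference of -1.43 ± 0.60 was not called (edgeR adjusted p = 0.128), and it was called without EFPrx1MSCLC 219 (-2.03, edgeR adjusted p = 0.0465). In experiment 2 Etv5 stood at 3.83, 2.5, 5.70 and 5.09 CPM in hr, 2.45 and 2.75 CPM in ha, and 4.2 and 4.45 CPM in EF. Both ha libraries lay below EF, and hr 1-2 lay between the ha values. None of the differences was called, at -0.73 ± 0.40 for ha against EF (edgeR adjusted p = 0.18), 0.72 ± 0.36 for hr against ha (edgeR adjusted p = 0.142) and -0.01 ± 0.34 for hr against EF (edgeR adjusted p = 0.995). Hr against ha was called without hr 1-2 (0.91, edgeR adjusted p = 0.0402).

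As a group, the PEA3 genes were scarce in experiment 2. Etv1, Etv4 and Etv5 summed to 53, 32.8, 13.9 and 41.4 CPM in EFPrx1MSCLC 219, 221, 225 and 229 and to 73.1, 64.8 and 67.6 CPM in MSC. In experiment 2 the sum was 5.69 to 11.2 CPM in hr, 2.8 and 3.48 CPM in ha, and 6.7 and 8.42 CPM in EF. The difference between experiments was not tested.

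**Figure D3:**
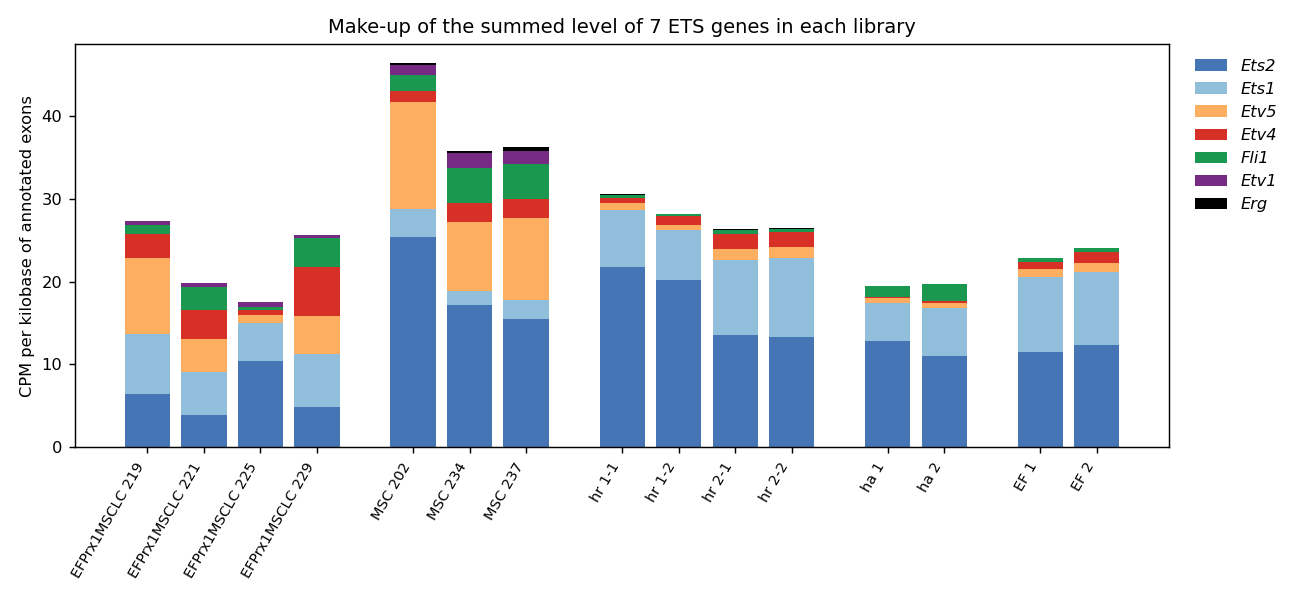
Summed CPM per kilobase of annotated exons of 7 ETS genes in each library (stacked bars), coloured by gene; dividing by length allows genes to be compared with each other. The total is 17.6 to 27.3 in EFPrx1MSCLC and 35.7 to 46.3 in MSC, and Ets2 makes up 50.4 to 71.7% in hr, 56 and 66% in ha and 50.3 and 51.2% in EF.

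Set against each other per kilobase of annotated exons, Ewsr1 and Taf15 exceeded each of the 7 ETS members in every group. Taf15 led in hr (63.8 ± 3.29 CPM per kb, SD, n = 4), ha (42.3 ± 4.86, n = 2), EF (75.6 ± 0.00855, n = 2) and MSC (44.0 ± 7.65, n = 3), with Ewsr1 next. In EFPrx1MSCLC Ewsr1 led (43.9 ± 8.41 CPM per kb, n = 4) before Taf15 (36.9 ± 5.02), and the SDs of these neighbours overlap there and in MSC. Among the 7 ETS members Ets2 had the highest group mean in all 5 groups. In EFPrx1MSCLC its 6.41 ± 2.90 CPM per kb did not differ beyond the SD from Ets1 (5.87 ± 1.19) or Etv5 (4.67 ± 3.38). Ets2 exceeded Ets1 per kb only in EFPrx1MSCLC 225. In 219, 221 and 229 Ets2 made up 23.7, 19.6 and 18.9% of the summed ETS level and Ets1 26.4, 26.3 and 25.3%. In MSC Ets2 (19.3 ± 5.28 CPM per kb) stood apart from Etv5 (10.3 ± 2.36), and Fli1 (3.51 ± 1.32), Ets1 (2.49 ± 0.83) and Etv4 (1.98 ± 0.57) followed with overlapping SDs. Of the 7 members, Ets1 came next after Ets2 in hr (7.85 ± 1.71 CPM per kb), ha (5.18 ± 0.83) and EF (8.94 ± 0.13). The exon length of Etv1, 13296 bases over all annotated transcripts, lowers its value per kb.

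The share of Ets1 in the summed ETS level was 25.3 to 26.4% in the 4 EFPrx1MSCLC libraries, against 4.89 to 7.32% in the 3 MSC libraries. That share was steady across EFPrx1MSCLC libraries whose other ETS genes differed widely. In EFPrx1MSCLC 225 Ets2 took 59.4% and Etv5 5.55%, while in the other 3 EFPrx1MSCLC libraries Ets2 took 18.9 to 23.7% and Etv5 17.8 to 33.5%. EFPrx1MSCLC 225 stood apart in other ways too. Its 10 most abundant genes held 16.81% of the counts, against 7 to 9.79% in the other EFPrx1MSCLC libraries, and its mitochondrial share was 8.426%, against 4.056 to 5.765%. MSC libraries had 1.632 to 3.524% mitochondrial counts, without overlap with EFPrx1MSCLC, and the part of these shares in the results was not tested.

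Ewsr1 (ENSMUSG00000009079, chromosome 11, 5069689 to 5099266, minus strand) did not separate EFPrx1MSCLC from MSC. It stood at 330.6, 223.7, 256.4 and 226.9 CPM in EFPrx1MSCLC and at 273.2, 188.3 and 235.9 CPM in MSC, with overlapping groups. The difference of -0.10 ± 0.26 was not called (edgeR adjusted p = 0.81), and its sign turned with scaling by library totals (0.16) and without MSC 202 (0.05). In experiment 2 Ewsr1 was lowest in ha. It stood at 218.1, 216.4, 253.7 and 253.4 CPM in hr, 174.7 and 213.1 CPM in ha, and 285.4 and 287.3 CPM in EF. The ha libraries lay below all hr libraries, and those below both EF libraries. Ewsr1 was lower in ha than in EF by -0.56 ± 0.14 (edgeR adjusted p = 0.0146), a call lost without ha 1, EF 1 or EF 2 (0.0527 to 0.0806). The differences of hr from ha (0.28 ± 0.12, edgeR adjusted p = 0.103) and from EF (-0.28 ± 0.12, edgeR adjusted p = 0.188) were not called.

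Taf15 (ENSMUSG00000020680, chromosome 11, 83473086 to 83506743, plus strand) followed the same order in experiment 2 with a larger change. Levels were 190, 197.5, 175.1 and 182.8 CPM in hr, 133.5 and 113.4 CPM in ha, and 220.5 and 220.6 CPM in EF. No group overlaps another. In ha Taf15 was lower than in EF by -0.82 ± 0.13 (edgeR adjusted p = 0.00264), a call lost only with the close libraries summed (0.108) among 17 alternatives. Taf15 was higher in hr than in ha by 0.58 ± 0.12 (edgeR adjusted p = 0.00681), again lost only with the close libraries summed (0.146). Between hr and EF it was not called (-0.24 ± 0.11, edgeR adjusted p = 0.221).

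In experiment 1 Taf15 stood at 128.5, 98.65, 96.28 and 107.8 CPM in EFPrx1MSCLC and at 153.4, 122.2 and 110.1 CPM in MSC. Only EFPrx1MSCLC 219 reached into the MSC range. The difference of -0.51 ± 0.22 was not called by edgeR (adjusted p = 0.134) and was called by DESeq2 (adjusted p = 0.0358). The ratio of Ewsr1 to Taf15 CPM was 2.1 to 2.66 in EFPrx1MSCLC, 1.54 to 2.14 in MSC, 1.1 to 1.45 in hr, 1.31 and 1.88 in ha, and 1.29 and 1.3 in EF.

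**Figure D4:**
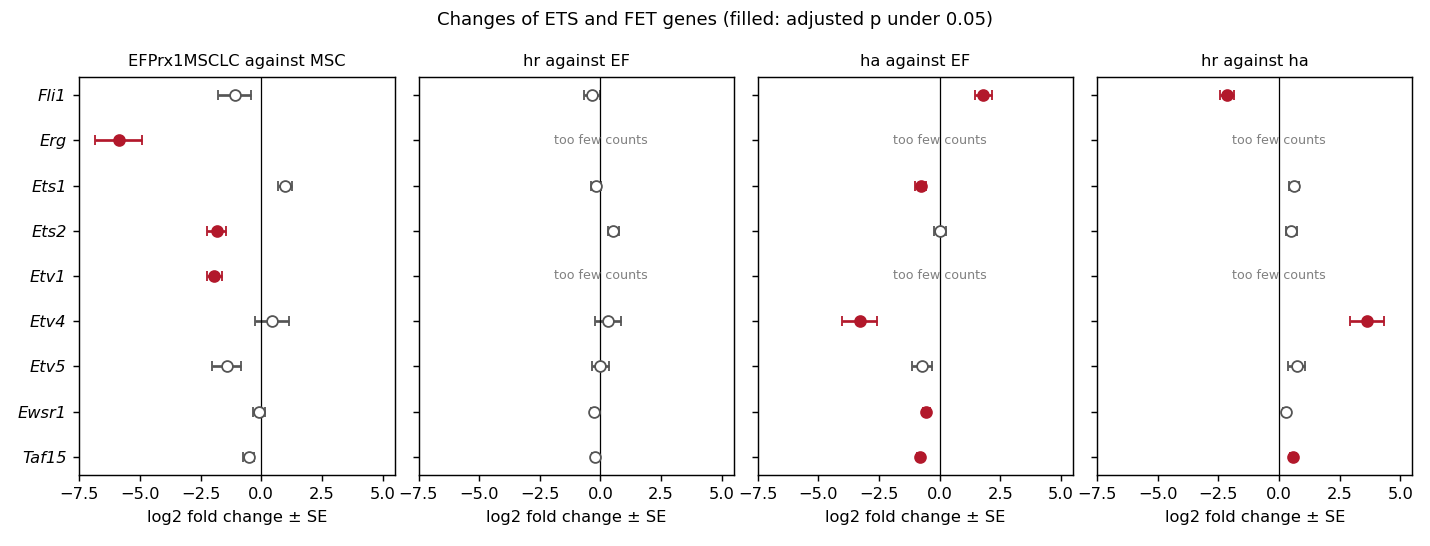
Log2 fold change ± standard error of the 9 genes in the 4 comparisons (edgeR, TMM-scaled); filled red points have an adjusted p under 0.05, open points do not, and Erg and Etv1 had too few counts in experiment 2. Ha differs from EF in 5 genes and hr differs from ha in 3, while no filled point appears for hr against EF.

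Counted over the set, EFPrx1MSCLC against MSC had 3 of 9 members called, all lower (Erg, Ets2 and Etv1). Without Erg, which could only be called lower, it was 2 of 8. Among all 14596 genes tested 19.8% were called, 7.70% higher and 12.1% lower. No member was called higher by edgeR. Ets1 alone was higher at an unadjusted p under 0.05 (1 member), and DESeq2 and limma-voom each called 1, Ets1 as well. Apart from Erg the groups did not overlap for 3 of 8 members, against 39% of all genes. Scaled by library totals, the median change over all genes moved from 0.04 to 0.30 and the split of called genes became 58.8% higher and 41.2% lower, from 38.9% and 61.1% with TMM.

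Ha against EF had 5 of 7 tested members called, with Fli1 higher and Ets1, Etv4, Ewsr1 and Taf15 lower. The background was high, at 42.6% of 13998 genes called, 23.0% higher and 19.6% lower. Groups did not overlap for 6 of 7 members, against 75.2% of all genes. Without EF 1 or EF 2 the count of members fell to 2, and without ha 1 to 3. Hr against ha had 3 of 7 called, with Etv4 and Taf15 higher and Fli1 lower, where 39.4% of all genes were called, 17.9% higher and 21.5% lower, and without hr 1-2 the count was 5. A share of 3 in 7 is near that background.

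Hr against EF had 0 of 7 members called by edgeR, 0 by DESeq2 and 0 by limma-voom, with 2 (Ets2 and Ewsr1) at an unadjusted p under 0.05. Of all genes 6.95% were called, 3.88% higher and 3.07% lower. The 3 comparisons of experiment 2 share libraries and are not independent of each other. The median change of the 7 tested members was -0.73 in ha against EF, -0.18 in hr against EF and 0.58 in hr against ha, against 0.05, 0.01 and -0.004 over all genes. Groups did not overlap for 3 of 7 members in hr against EF and 6 of 7 in hr against ha, against 46.7% and 55.5% of all genes.

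Other genes of the ETS family were counted beside the set. Of 19 further ETS genes in the table, 11 had enough counts in each experiment. In EFPrx1MSCLC against MSC 1 was higher and 1 lower, where 7.70% and 12.1% of all genes were. The higher one was Etv6, which encodes a repressive ETS factor and averaged 84.7 ± 10 CPM in EFPrx1MSCLC (n = 4) and 32.6 ± 4.98 CPM in MSC (n = 3), a change of 1.12 ± 0.21 (edgeR adjusted p = 0.0107). The lower one was Spi1, which passed the filter on low counts only with the MSC libraries and could only be called lower. In ha against EF 4 were higher and 3 lower, beside 23.0% higher and 19.6% lower over all genes. The lowest p-values were those of Elf1 (0.82 ± 0.14, edgeR adjusted p = 0.0031) and Etv3 (0.83 ± 0.22, edgeR adjusted p = 0.0195) among the higher, and Erf (-0.80 ± 0.15, edgeR adjusted p = 0.00514) and Elk3 (-0.44 ± 0.10, edgeR adjusted p = 0.00905) among the lower. Erf and Etv3 encode ETS repressors that moved in opposite directions. In hr against ha 3 were higher and 2 lower, beside 17.9% and 21.5% of all genes, with Elk3 higher by 0.49 ± 0.09 and Elf4 by 0.74 ± 0.19, and Etv6 lower by -0.80 ± 0.12 and Elf1 by -0.39 ± 0.12 (edgeR adjusted p at most 0.0331). In hr against EF none of the 11 was called by edgeR or limma-voom, while DESeq2 called 1, and 4 had an unadjusted p under 0.05. Of all genes 6.95% were called there by edgeR. Spi1 had 0 to 11 counts in the libraries of experiment 2 and was not tested there.

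Among partners of the FET proteins, Prmt1, the arginine methyltransferase that modifies them, moved with Taf15. It averaged 157 ± 6.26 CPM in hr, 95.5 ± 13.5 CPM in ha and 226 ± 0.236 CPM in EF. Its change was -1.23 ± 0.15 in ha against EF (edgeR adjusted p = 0.000804), -0.52 ± 0.12 in hr against EF (edgeR adjusted p = 0.0476) and 0.71 ± 0.13 in hr against ha (edgeR adjusted p = 0.00452). Of the 4 tested partners, 2 were lower and 0 higher in ha against EF (19.6% and 23.0% of all genes), the other being Snrpc, a U1 snRNP subunit gene (-0.58 ± 0.13, edgeR adjusted p = 0.0109). No gene of the list was higher there by limma-voom, against 1 by DESeq2 and 1 at an unadjusted p under 0.05. In EFPrx1MSCLC against MSC none of the 4 was called by edgeR, DESeq2 or limma-voom, and 0 had an unadjusted p under 0.05. Of all genes 19.8% were called there by edgeR. Prmt1 was the only one of the 4 called in hr against EF and in hr against ha, where 6.95% and 39.4% of all genes were.

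The list of known regulators of the PEA3 group held Cic, Atxn1 and Atxn1l, of the repressor complex on these genes, and Cop1 and Det1, of the ubiquitin ligase that removes their proteins. In ha against EF Det1 was the only one of the 5 called, where 42.6% of all genes were, lower by -0.59 ± 0.16 (edgeR adjusted p = 0.0218). In hr against ha 2 of 5 were called, near the 39.4% of all genes. Det1 was higher by 0.49 ± 0.14 (edgeR adjusted p = 0.0296) and Atxn1 lower by -1.34 ± 0.38 (edgeR adjusted p = 0.027). Atxn1 averaged 21.6 ± 10.4 CPM in hr, 54.4 ± 13.2 CPM in ha and 22.3 ± 2.39 CPM in EF. In EFPrx1MSCLC against MSC edgeR called 0 of 5, beside 19.8% of all genes. DESeq2 called 1 of the 5, limma-voom 1, and 1 had an unadjusted p under 0.05. In hr against EF, where edgeR called 6.95% of all genes, edgeR, DESeq2 and limma-voom each called 0 of 5. None of the 5 had an unadjusted p under 0.05.

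Feedback and induced genes of the ERK pathway, which acts upstream of the PEA3 group, moved in both directions. In ha against EF 4 of 13 were higher and 5 lower, beside 23.0% and 19.6% of all genes. Spry2 and Spry1, feedback inhibitors of receptor signalling, were higher by 3.4 ± 0.48 and 3.15 ± 0.51 (edgeR adjusted p = 0.00168 and 0.00281), while the inhibitor gene Spred2 was lower by -1.36 ± 0.10 (edgeR adjusted p = 0.000162) and the ERK phosphatase gene Dusp6 by -0.77 ± 0.16 (edgeR adjusted p = 0.00638). Spry2 averaged 12.1 ± 4.54 CPM in hr, 137 ± 61.6 CPM in ha and 13.2 ± 0.091 CPM in EF. It was highest in ha, where Etv4 was lowest. Between hr and EF, Spry2 was not called (-0.12 ± 0.41, edgeR adjusted p = 0.888), and neither was Etv4. A link between Spry2 and Etv4 was not tested. In hr against ha 3 were higher and 3 lower, beside 17.9% and 21.5% of all genes, among them Spry2 (-3.52 ± 0.38, edgeR adjusted p = 0.000519), Spry1 (-1.95 ± 0.39, edgeR adjusted p = 0.00635), Fosl1, an AP-1 subunit gene (2.34 ± 0.43, edgeR adjusted p = 0.0047), and Spred2 (0.76 ± 0.09, edgeR adjusted p = 0.000637). In hr against EF 2 of 13 were lower, beside 3.07% of all genes, Spred2 (-0.60 ± 0.08, edgeR adjusted p = 0.0117) and Dusp6 (-0.79 ± 0.13, edgeR adjusted p = 0.0189). By edgeR, DESeq2 or limma-voom 0 of 13 were higher, with 1 at an unadjusted p under 0.05. Of all genes 3.88% were higher there by edgeR. In EFPrx1MSCLC against MSC 1 of 14 was called, where 19.8% of all genes were. That was Spry1, lower by -2.52 ± 0.51 (edgeR adjusted p = 0.0151). EFPrx1MSCLC 225, lowest of its group in Etv4 and Etv5, had a summed level of these genes of 349.5 CPM, against 786.9 to 1147 CPM in the other 3 libraries. Not every gene of the list was low there, as Spry1 was highest of its group in EFPrx1MSCLC 225 (8.597 CPM). A link between this sum and Etv4 or Etv5 was not tested.

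**Figure D5:**
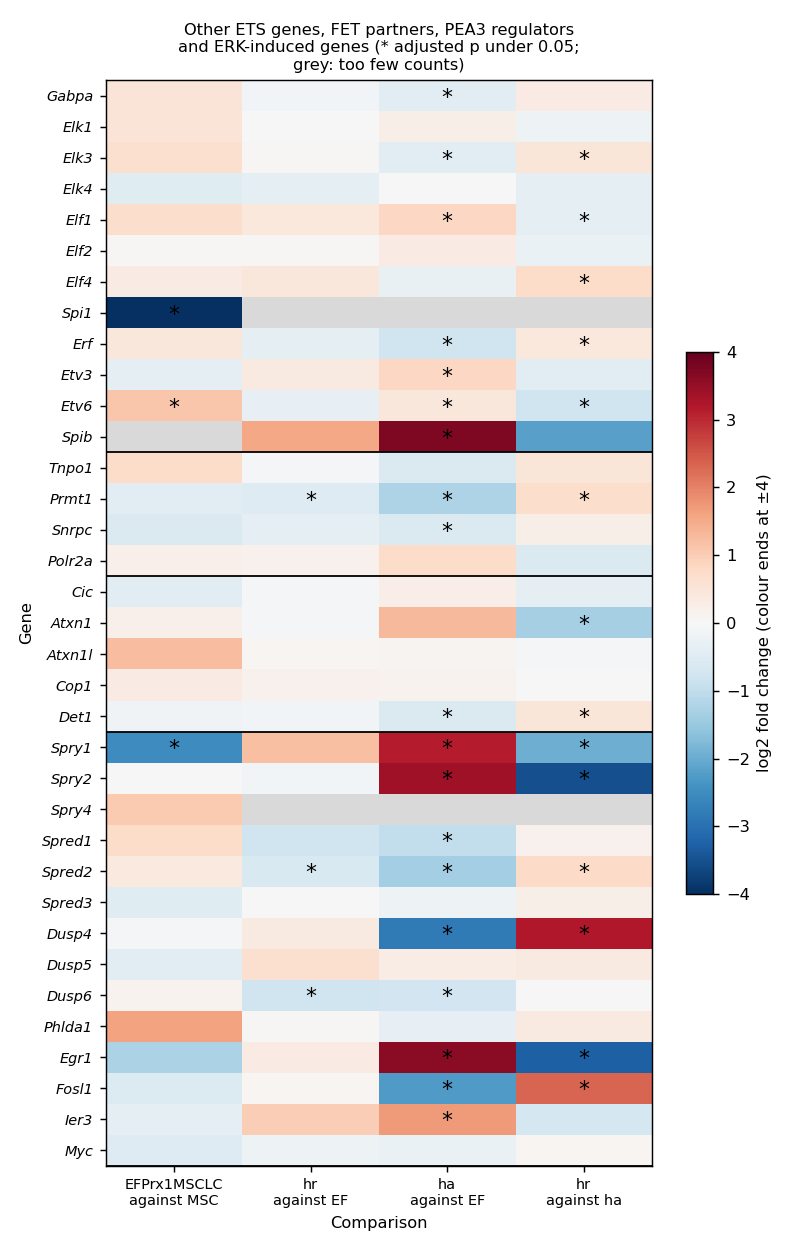
Log2 fold changes (colour, ending at ±4) of other ETS genes, partners of the FET proteins, PEA3 regulators and ERK-induced genes, in blocks from top to bottom separated by lines, for the 4 comparisons; asterisks mark an adjusted p under 0.05 and grey cells had too few counts. Spry1 and Spry2 are red (higher) in ha against EF and blue (lower) in hr against ha, while Spred2 is the reverse.

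The genes most like each member over the 15 libraries, by Pearson's r of log2(CPM + 0.5) among 13100 genes tested in both experiments, are given as a description. The libraries share experiments, and differences between experiments enter each value. Fli1 was most like Rcsd1 and Zdhhc14 (both r = 0.968), and Ets1 most like Mphosph9 (0.984) and Gfm1 (0.972). For Ets2 they were Slc6a9 (0.929) and Cpq (0.915), for Etv4 Cdc34 (0.893) and Reep4 (0.887), and for Etv5 Fam110c (0.973) and Tnfrsf21 (0.969). Taf15 was most like Eif3c (0.97) and Lama5 (0.967), and Ewsr1 had the weakest likeness, with Ap2a1 (0.832) and Tbc1d10b (0.823).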

How the data were processed

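RNA-seq of 15 libraries was used. The authors deposited RSEM expected counts per gene for all libraries in a single table; the submitters' processing notes list STAR, RSEM (no versions) and the build GRCm38.p6. With the annotation release and strand setting not given in the sources used here, overlapping genes may share reads. Identifiers were named with GENCODE M21 (55144 of 55471 matched), and exon lengths are unions over its transcripts.

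Expected counts were rounded to whole numbers (8.27% were not whole). Within each experiment, genes were filtered with filterByExpr (minimum count 10), scaled by TMM and tested with edgeR 4.0.16 (glmQLFit, robust; glmQLFTest, two-sided; R 4.3.3), with Benjamini-Hochberg adjustment over all genes and calls at an adjusted p under 0.05. Experiment 2 was fitted as a whole (8 libraries). The fits were tested on simulated data. Alternatives were DESeq2 size factors, library totals, no filter, a filter of 5 CPM, DESeq2 1.42.0, limma-voom (limma 3.58.1), each library left out, and, in experiment 2, only the groups compared, a replicate block and close libraries summed. CPM per library rest on the library total. Count intervals and limits for 0 counts (3 counts) cover counting error only.

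All 9 members are named in every comparison, and of each further list up to 4 called genes per comparison by p-value, and Spi1 always. Results for 1 further gene are not reported here. The members and lists were chosen with earlier results of these data known. Figures were drawn with matplotlib 3.10.9.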

Additional observations from a re-analysis of the deposited data

Results flagged for a closer look

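In groups of 4 libraries, a library was singled out where its gap to the nearest other, divided by the range of the group, exceeded Dixon's 95% critical value; chance does this in about 1 in 20 groups, and 18 were examined. Erg stood at 0.0656 CPM in EFPrx1MSCLC 225 and at 0 in the other 3 EFPrx1MSCLC libraries, which rests on 1 count. Etv1 stood at 0.264 CPM in hr 2-2, on 3 counts, and at 0 in the other 3 hr libraries. With the other 3 libraries at 0, the gap equals the range whatever the count. The rate of 1 in 20 therefore does not apply to these 2 flags.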

How the results depend on the processing

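Of 470 alternatives for single members, 429 left direction and call unchanged, 18 lost a call, 12 gained one and 11 changed sign. For EFPrx1MSCLC against MSC the count of called members was 3, 5 by DESeq2's Wald test, and 2 to 4 when single libraries were left out. For ha against EF it was 5, 0 with close libraries summed and 2 to 5 leaving out single libraries, and for hr against ha it was 3, 1 with close libraries summed and 3 to 5 leaving out single libraries. In hr against EF 0 were called under all alternatives. Fewer libraries enter the summed fit; the cause of the other changes was not tested. Signs turned for small uncalled differences. Etv4 in EFPrx1MSCLC against MSC became -0.136 without EFPrx1MSCLC 229 (-0.136 to 0.690 leaving out single libraries), and Ewsr1 there became 0.158 with library totals and 0.049 without MSC 202 (-0.282 to 0.049). Ets2 in ha against EF became -0.164 without ha 1, -0.045 without EF 1 and -0.012 with close libraries summed (-0.164 to 0.179 leaving out single libraries). Etv5 in hr against EF became 0.008 with no filter, 0.007 with the 5 CPM filter, 0.052 without hr 1-1, 0.187 without hr 1-2 and 0.042 without EF 2 (-0.185 to 0.187). Calls over all genes moved by more than 1.5 times with close libraries summed (736 for ha against EF, 0 for hr against EF, 1272 for hr against ha), by DESeq2 in EFPrx1MSCLC against MSC (4598) and hr against EF (1973), and for hr against EF in a fit of only the 2 groups (1927) or with a replicate block (322). With the last title number as a replicate block, 4 members were called in ha against EF (Ets1 was lost, -0.79, edgeR adjusted p = 0.0509), 0 in hr against EF and 3 in hr against ha; the numbers did not pair the libraries (correlations of their deviations -0.028 to 0.012). Leaving out single libraries, calls over all genes ran from 1219 (without MSC 237) to 5087 (without MSC 202) for EFPrx1MSCLC against MSC, with 1275 without MSC 234, 1580 without EFPrx1MSCLC 229 and 1673 without EFPrx1MSCLC 221. For ha against EF they were 3070 without EF 1 and 3106 without EF 2. For hr against EF they were 332 to 379 without one hr library, 1787 and 1796 without ha 1 and ha 2, and 0 without EF 1 or EF 2. The shares of all genes called thus rest on single libraries. Depth limits Erg and, in experiment 2, Etv1.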

Other observations

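The title number 221 occurs in both experiments, and the levels of several members differed between the libraries that carry it. Fli1 stood at 1.61 and 1.83 CPM in EF 1 and 2 of experiment 2, against 9.66 CPM in EFPrx1MSCLC 221 of experiment 1. Etv5 stood at 4.2 and 4.45 CPM in the EF libraries, against 16.39 CPM in EFPrx1MSCLC 221. Etv1 had no count in either EF library, against 104 counts in EFPrx1MSCLC 221. Ets2 was the other way round, with 66.28 and 71.30 CPM in EF, against 22.44 CPM in EFPrx1MSCLC 221. Taf15 stood at 220.5 and 220.6 CPM in EF, against 98.65 CPM in EFPrx1MSCLC 221. Line, culture and experiment cannot be told apart.

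Within hr, Etv4 and Ets2 differed between libraries with different first title digits. Etv4 stood at 1.87 and 3.19 CPM in hr 1-1 and 1-2 and at 5.35 and 5.80 CPM in hr 2-1 and 2-2. Ets2 stood at 125.7 and 116.8 CPM in hr 1-1 and 1-2 and at 78.18 and 77.28 CPM in hr 2-1 and 2-2. No test was made between them.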
